A study of Macaca mulatta with 11 samples.

Results

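Cadherins are calcium-dependent surface proteins by which a cell holds on to its neighbours, and catenins are the cytoplasmic proteins that tie them to actin. The outer part of a cadherin binds cadherins of the next cell, while its tail binds beta-catenin and p120-catenin, and alpha-catenin joins beta-catenin to actin filaments. Mesenchymal and marrow stromal cells are known for N-cadherin (CDH2) and cadherin-11 (CDH11) in place of the epithelial E-cadherin (CDH1), and a pool of beta-catenin outside the junction carries WNT signals to the nucleus. The genes described here are CDH2, CDH11, CDH6, CDH4, CDH1, CDH3, CDH13 and the catenin genes CTNNB1, CTNNA1 and CTNND1. Their probe sets were taken by the gene symbol of the array annotation, also where the symbol stood beside another one. This gave 20 of 22215 probe sets for 8 of the 10 genes, with 2 for CDH2, 2 for CDH11, 5 for CDH6, 2 for CDH1, 1 for CDH3, 1 for CTNNB1, 4 for CTNNA1 and 3 for CTNND1. CDH4 and CDH13 were not analysed here. No filter on low values was used, so all 20 entered every comparison.

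The study set side by side cultured mesenchymal stem cells from rhesus monkey (Macaca mulatta) bone marrow at different donor ages, with 1 array for each of 11 cultures. Of the 4 arrays titled fetal, numbers 1 and 2 were from gestation day 120 and numbers 3 and 4 from newborns. The 4 infant arrays came from donors aged 6, 6, 3 and 5 months, and the 3 adult arrays from donors aged 7, 7 and 8 years. All cells were adherent cells grown in medium with fetal bovine serum and collected at the second passage before confluence. Marrow of gestation day 120 and newborn donors was flushed from long bones and that of infants and adults was aspirated, so a difference from fetal arrays and one between ways of collecting marrow cannot be told apart. The labels give no strain, sex or treatment, and leave unstated whether arrays of the same age are from separate animals. If some share an animal, p-values measure only the spread between these cultures.

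Median intensities of the arrays lay between 164.9 and 169.6, and the number of arrays limits the precision. Some arrays stood apart. Adult array 3 read 11.23 for XIST, the RNA of the inactive X chromosome, against 7.27 to 8.40 elsewhere. It read 7.81 for RPS4Y1, a gene of the Y chromosome, against 11.30 to 12.16 elsewhere. On these genes adult array 3 read as female and all other arrays as male, which the labels do not state. Adult arrays 1 and 2 read 12.82 and 13.23 for the brightest probe set of IGLC1, an immunoglobulin light chain gene. Adult array 3 read 9.10 on it, also above the fetal and infant arrays at 7.82 to 8.30. On the next brightest IGLC1 set adult array 3, at 8.22, lay within the fetal and infant range of 7.94 to 8.31. The B and plasma cell markers (7 of 8 measured) summed to between 1278 and 1330 intensity units in adult arrays. They summed to between 1077 and 1405 in infant and 1249 and 1385 in fetal arrays. Whether the IGLC1 signal bears on the adult differences was not tested. The mesenchymal stromal markers (11 of 11 measured) summed to between 57910 and 77550 intensity units in fetal, 52600 and 65920 in infant and 62520 and 73700 in adult arrays. The leukocyte and macrophage markers (9 of 9 measured) summed to at most 2044 in any array. In bulk RNA, fewer cells of a type and less RNA per cell cannot be told apart.

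The genes were chosen on the intensities of these same arrays, since a CDH2 probe set passed the test between adult and fetal arrays. Values of all members in that comparison are therefore given as a description, with no p. Levels are log2 intensities of a probe set, and differences are log2 values of the older group minus the younger one with the SE of the limma fit. Comparisons of adults with infants and of infants with fetal arrays share arrays with the one that chose the genes. Human probes were used on monkey RNA, so a level was set against other probe sets only to say whether a set was dim or bright on the array, never as an amount of RNA.

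CDH2, which encodes N-cadherin, the classical (type I) cadherin of mesenchymal, neural and muscle cells, was brightest at gestation day 120 and dimmest in adults. Probe set 203440_at read 9.06 and 8.88 at gestation day 120, 8.45 and 8.28 in newborns, 8.10, 8.03, 8.23 and 8.13 in infants and 7.76, 7.39 and 7.50 in adults. No 2 of the 4 stages overlapped on this set, which chose the genes. How many of all probe sets separate in this way was not counted, so nothing is read from it. The other probe set, 203441_s_at, read 9.48 and 9.01 at gestation day 120, 8.81 and 8.71 in newborns, 8.52, 8.85, 8.71 and 8.74 in infants and 8.15, 8.18 and 8.46 in adults. Here newborns and infants overlapped, and the adult arrays lay below every other one. The probe sets correlated at r = 0.90 over the 11 arrays, and at 0.14 within stages, after each stage mean was taken off.

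Between adult and fetal arrays, 203440_at averaged 7.55 ± 0.19 in adults (SD, n = 3) and 8.67 ± 0.36 in fetal arrays (SD, n = 4). The difference was -1.12 (SE 0.16), so that the fetal level was 2.17-fold the adult one. For 203441_s_at the difference was -0.74 (SE 0.16), with a mean of 8.26 ± 0.17 in adults (SD, n = 3). Set against gestation day 120 alone, in a fit with 4 stages, the adult difference was -1.42 for 203440_at and -0.99 for 203441_s_at. Of the 20 probe sets 1 was called at an adjusted p under 0.05, 203440_at, where 0.131% of all probe sets were called. It is the value by which the genes were chosen, and nothing is read from it. The call was lost without adult array 1, adult array 2, fetal array 1 or fetal array 2, where the difference lay between -1.22 and -0.98.

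**Figure D1:**
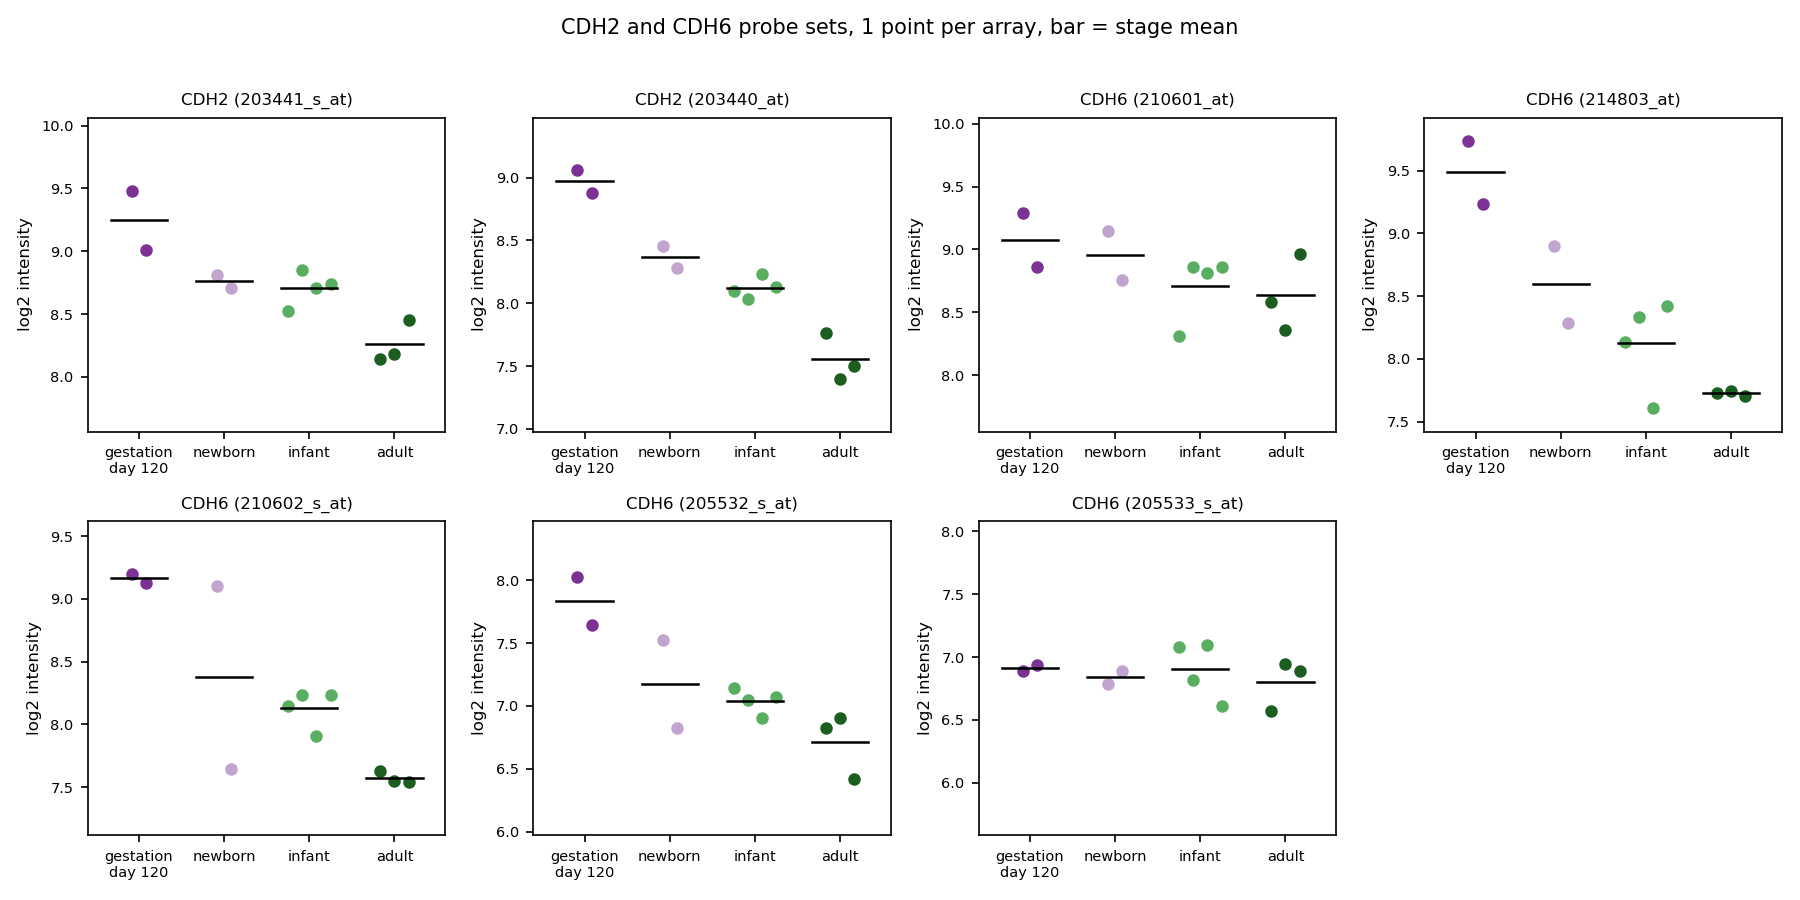
Log2 intensity of the CDH2 and CDH6 probe sets in each of the 11 arrays, by donor stage from gestation day 120 to adult, with bars at stage means and every panel spanning the same 2.5 log2 units. CDH2 203440_at, the set that chose the genes, falls into separate ranges at the 4 stages. The newborn arrays lie apart from each other for 3 of the CDH6 probe sets.

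CDH6, which encodes K-cadherin, a type II cadherin best known from developing kidney, had 5 probe sets, and they did not give 1 picture. Probe set 214803_at read 9.74 and 9.24 at gestation day 120, 8.90 and 8.29 in newborns, 8.14, 8.33, 7.61 and 8.42 in infants and 7.73, 7.75 and 7.71 in adults. Probe set 210602_s_at read 9.20 and 9.13 at gestation day 120, 9.10 and 7.65 in newborns, 8.15, 8.23, 7.91 and 8.24 in infants and 7.63, 7.55 and 7.54 in adults. Newborn array 4 stood with the adults on 210602_s_at, whereas newborn array 3 stood with the gestation day 120 arrays. Probe set 205532_s_at showed the same split of the newborns, at 7.52 and 6.82. The remaining probe sets were flatter. The brightest, 210601_at, lay between 8.76 and 9.29 in fetal arrays, 8.31 and 8.86 in infants and 8.36 and 8.97 in adults, and 205533_s_at lay between 6.57 and 7.10 in all arrays.

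Adult minus fetal, CDH6 differed by -1.31 (SE 0.26) on 214803_at, -1.20 (SE 0.28) on 210602_s_at and -0.79 (SE 0.21) on 205532_s_at. It differed by -0.38 (SE 0.18) on 210601_at and by -0.07 (SE 0.13) on 205533_s_at. Probe sets 214803_at, 210602_s_at and 205532_s_at correlated with each other at r between 0.92 and 0.94 over the 11 arrays. With 205533_s_at no other CDH6 probe set correlated above 0.06. That set lay below 7.38, the median of all probe sets, on every array, and whether it carried signal was not tested. Without fetal array 4, a newborn array, the adult differences were larger, at -1.56 for 214803_at and -1.57 for 210602_s_at.

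CDH2 and CDH6 took similar courses over the arrays. Against 203441_s_at of CDH2, the 4 brighter CDH6 probe sets had Pearson r between 0.76 and 0.87 and Spearman rho between 0.69 and 0.91 over 11 arrays. Without the 2 arrays farthest from the CDH2 median, r lay between 0.62 and 0.75. Within stages, after each stage mean was taken off, it ranged from 0.07 for 205532_s_at to 0.87 for 210601_at. The dimmest CDH6 set, 205533_s_at, had r = 0.16 and rho = -0.05 over 11 arrays, and r = -0.27 without those 2 arrays. These are descriptions over arrays that share their age groups and their normalisation. Among 7186 genes brighter than the median, the leading CDH6 probe set ranked at 106.

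The closest course to that of CDH2 203441_s_at was that of DPYSL3, which encodes a cytoskeletal protein of growing axons (r = 0.94 over 11 arrays). It was followed by TPBG, a trophoblast glycoprotein gene (0.92), HMGA1, for a chromatin protein (0.92), POLR2L, for a subunit of RNA polymerase II (0.92), and PDGFRA, for a platelet-derived growth factor receptor (0.91). DPYSL3 read between 7.80 and 8.45 in adults and between 8.55 and 9.27 in fetal arrays. The most opposed courses were those of CD3E (-0.91), CSTA (-0.90) and NMB (-0.90). CSTA, which encodes a cysteine protease inhibitor, read between 7.54 and 8.54 in adults and between 6.63 and 7.51 in fetal arrays.

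CDH11, which encodes the type II cadherin known as osteoblast cadherin, had its highest mean in infants. Probe set 207173_x_at read 11.51 and 11.89 at gestation day 120, 11.38 and 11.55 in newborns, 11.79, 12.09, 11.87 and 11.75 in infants and 11.37, 11.45 and 11.28 in adults. The adult arrays lay below all infant arrays, and gestation day 120 array 2 lay within the infant range. Probe set 207172_s_at read between 10.05 and 10.35 in fetal arrays, 11.01, 10.90, 10.37 and 10.32 in infants, and 10.47, 10.03 and 9.68 in adults. The spread among infants and among adults on this set was wider than the step between the fetal and adult means.

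Between adults and fetal arrays CDH11 differed by -0.22 (SE 0.13) and -0.15 (SE 0.19), and without adult array 3 the second value was 0.04. Against CDH2 203441_s_at, CDH11 207173_x_at had r = 0.33 and rho = 0.53 over 11 arrays, and r = 0.54 without the 2 arrays farthest from the CDH2 median. For 207172_s_at these were 0.06, 0.10 and 0.34. The suffix x marks probe sets whose probes may also match other transcripts, so that this set is less certain than its partner.

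CDH1 and CDH3, which encode the type I cadherins of epithelia and placenta, showed little spread. The brighter CDH1 probe set, 201130_s_at, lay between 6.86 and 7.10 in fetal arrays, 7.08 and 7.49 in infants and 7.08 and 7.19 in adults, all but 1 of them below 7.38, the median of all probe sets. CDH3 lay between 7.64 and 7.73 in fetal arrays, 7.50 and 7.74 in infants and 7.57 and 7.76 in adults. On both genes the groups overlapped or touched. For CDH3 the 95% interval of the difference of adults from infants ran from -0.15 to 0.26. For the brighter CDH1 set it ran from -0.32 to 0.18.

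CTNNB1, which encodes beta-catenin, had its highest group mean in adults. It read 10.94 and 10.98 at gestation day 120, 10.96 and 11.70 in newborns, 11.17, 11.06, 11.04 and 10.82 in infants and 11.60, 11.30 and 11.40 in adults. The adults lay above all infants and above 3 of the 4 fetal arrays, and newborn array 4 had the highest value of all. The adult means differed from the fetal ones by 0.29 (SE 0.17), and by 0.47 without fetal array 4. Over the 11 arrays CTNNB1 and CDH2 had r = -0.61 and rho = -0.73, and r = -0.45 without the 2 arrays farthest from the CDH2 median.

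CTNNA1, which encodes alpha-E-catenin, had its brightest probe set, 210844_x_at, at 9.54, 9.45, 9.55 and 10.01 in fetal arrays, between 9.63 and 10.03 in infants and at 9.52, 9.49 and 9.67 in adults. Its groups overlapped, and the adult difference from fetal arrays was -0.07 (SE 0.14). On the other 3 probe sets that difference lay between -0.10 and 0.15. CTNNA1 has a pseudogene, CTNNA1P1, with a probe set of its own that read between 6.77 and 7.19, and the x probe sets of CTNNA1 may share sequence with it.

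CTNND1, which encodes p120-catenin, was read only by probe sets that the annotation also assigns to TMX2-CTNND1, a transcript that runs through from the neighbouring gene TMX2. The brightest of these, 211240_x_at, lay between 8.67 and 9.01 in fetal arrays, 8.83 and 9.07 in infants and 8.36 and 8.84 in adults. The probe set of TMX2 itself lay between 7.58 and 8.04. The fetal, infant and adult arrays overlapped on all 3 shared probe sets.

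**Figure D2:**
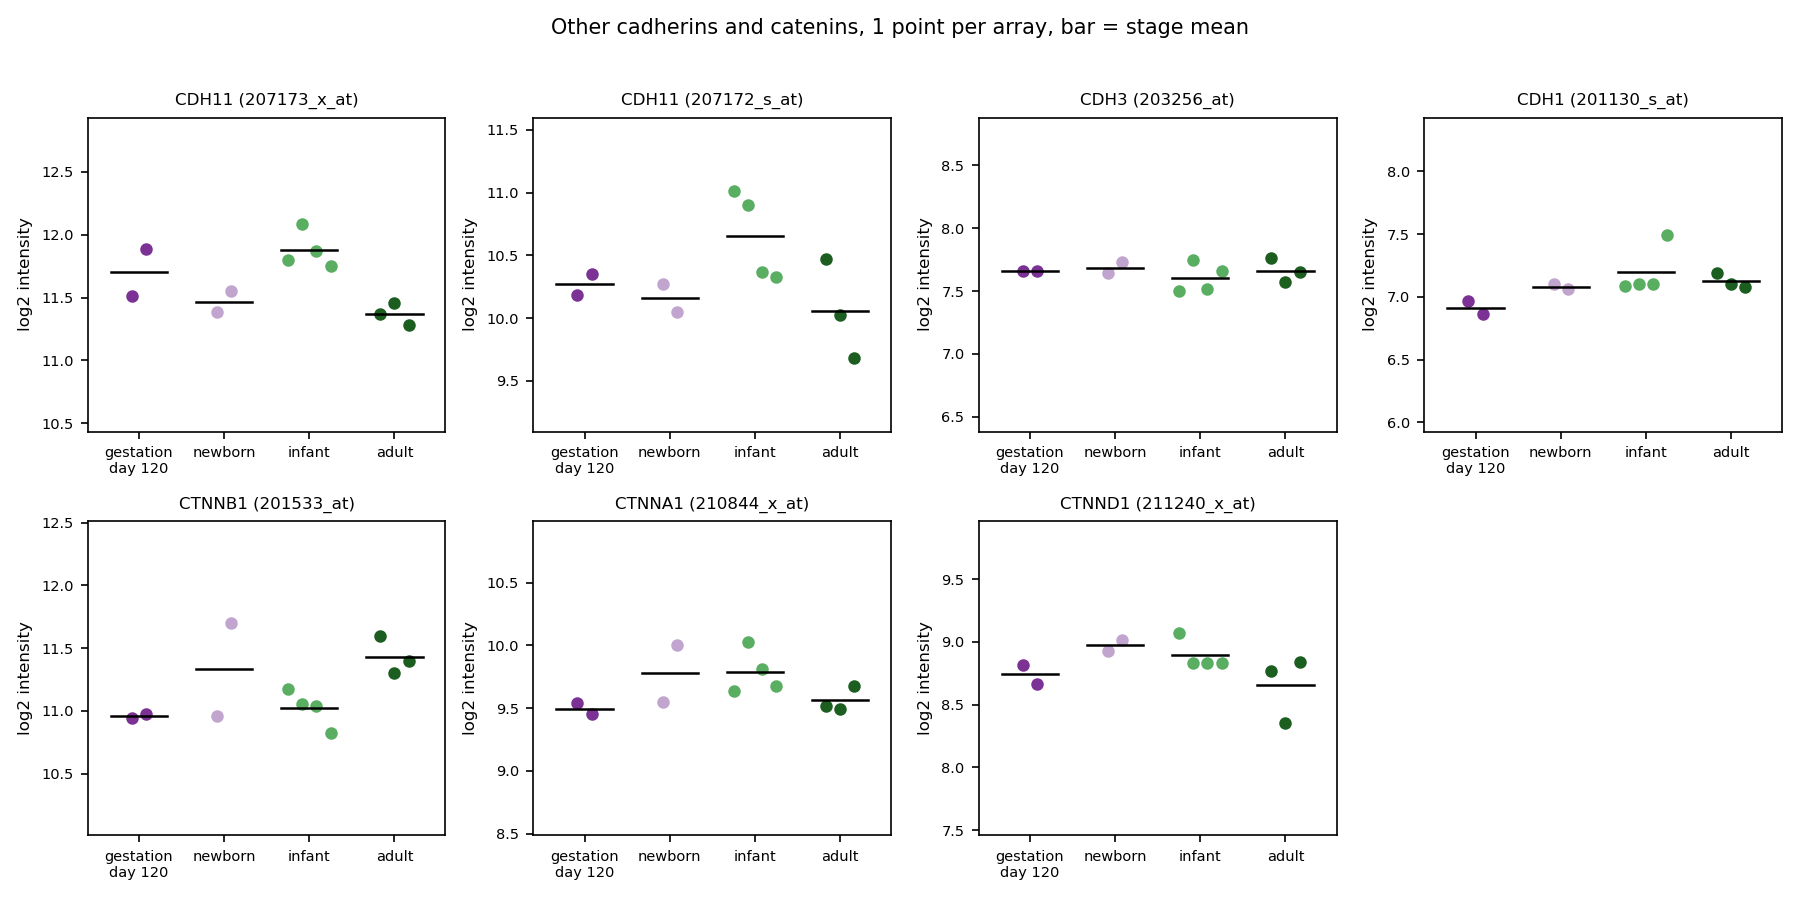
Log2 intensity of the CDH11, CDH3, CDH1, CTNNB1, CTNNA1 and CTNND1 probe sets in each of the 11 arrays by donor stage, with bars at stage means and every panel spanning 2.5 log2 units. CDH11 is brightest in infants, CTNNB1 lies highest in adults and in newborn array 4, and the stage means of the other panels lie closer together.

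Over the 20 probe sets, 15 were lower in adult than in fetal arrays, with a median difference of -0.09, while 47.5% of all probe sets were lower, with a median of 0.01. The adult and fetal arrays did not overlap for 4 of the 20, all lower in adults, which were both CDH2 sets and 2 of CDH6. Over all probe sets 8.08% did not overlap. These counts come from the comparison that chose the genes, and nothing is read from them.

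The summed level of epithelial markers also moved with these groups, through 1 gene. The 7 measured epithelial markers summed to between 1557 and 2657 intensity units in fetal, 1107 and 1824 in infant and 1124 and 1275 in adult arrays. Of the 7, which include CDH1, 3 were lower and 4 higher in adults than in fetal arrays, with a median difference of 0.02. The sum followed KRT18, a keratin gene, at 8.34 in adults and 10.03 in fetal arrays on average, a difference of -1.69 that did not pass (limma adjusted p = 0.194). EPCAM, a defining marker of epithelium, averaged 6.58 in adults and 6.60 in fetal arrays, and none of the 7 passed. Their part in the CDH2 and CDH6 differences was not tested. The 6 measured endothelial markers summed to between 1157 and 1243 units in adult and 1035 and 1091 in fetal arrays, with CDH5, the cadherin that defines endothelium, at 6.81 in adults and 6.68 in fetal arrays. Neural and glial cells and skeletal muscle both express CDH2. The 5 neural and glial markers summed to 841.7 to 929.7 units in adults and 859.2 to 916.1 in fetal arrays. The 5 muscle markers summed to 1090 to 1236 and 1004 to 1174 units, so both sums overlapped. Mean log2 values of the neural and glial markers were 7.325 to 7.499 in adults and 7.39 to 7.474 in fetal arrays. Those of muscle were 7.66 to 7.872 and 7.62 to 7.776. The median of all probe sets was 7.38. Whether such dim sets carried signal was not tested, so nothing is read from the overlap.

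**Figure D3:**
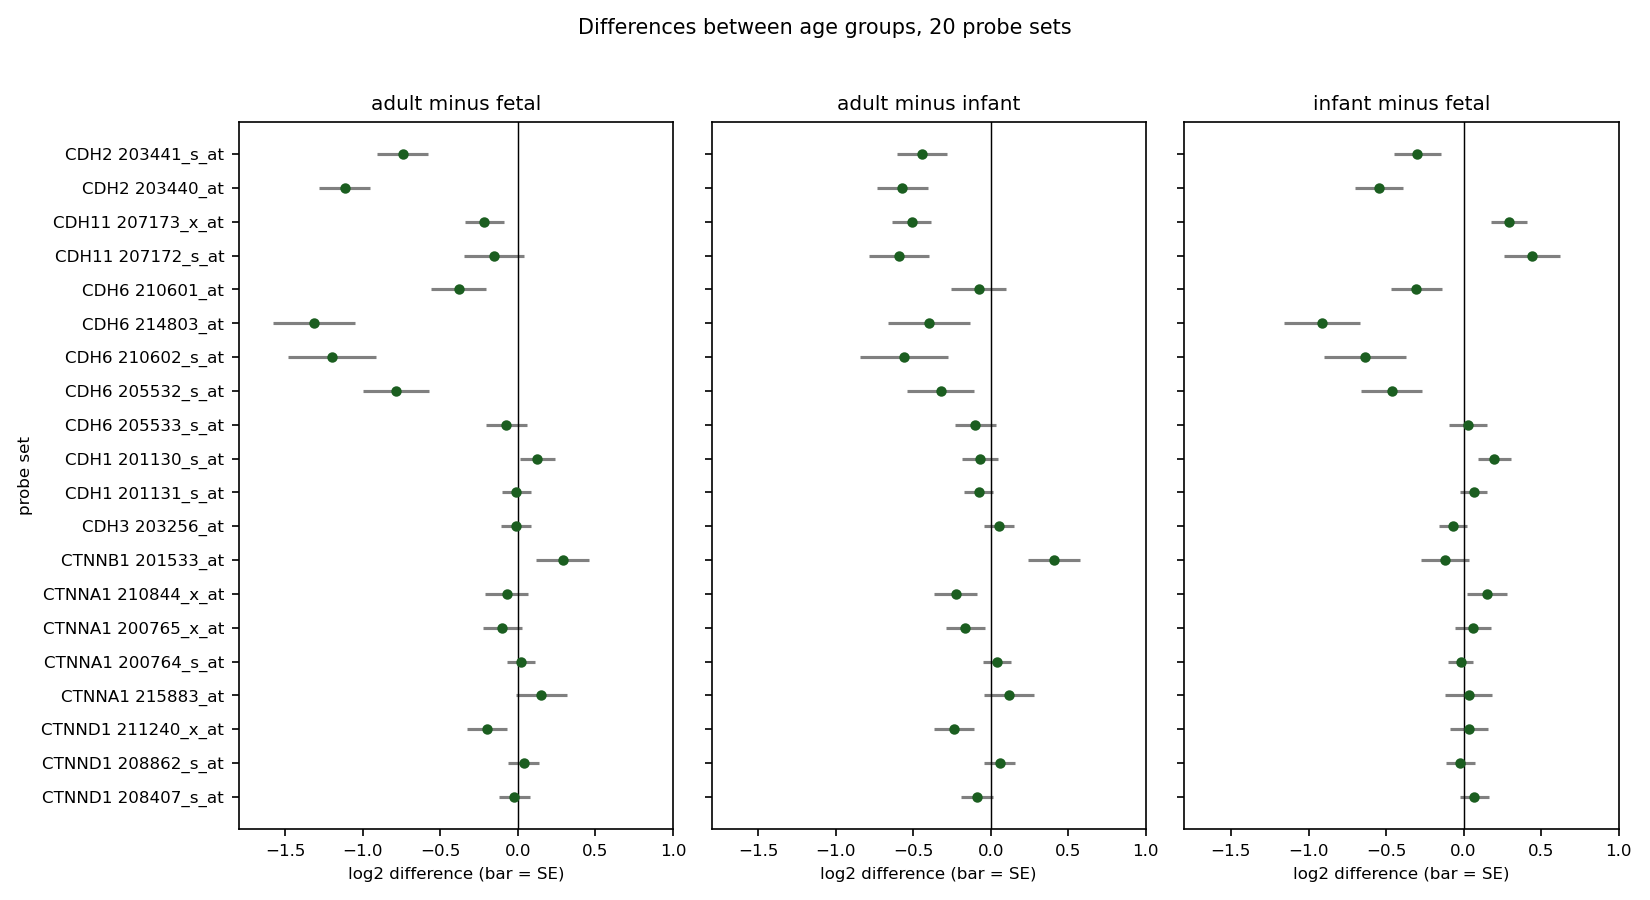
Log2 difference of adults from fetal arrays, adults from infants and infants from fetal arrays for the 20 probe sets, with bars for the SE of the limma fit and a line at 0. Both CDH2 and 4 of the 5 CDH6 probe sets lie left of 0 in all panels, whereas CDH11 changes side between adults against infants and infants against fetal arrays.

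Adults were next set against infants, a comparison of aspirated marrow on both sides. CDH2 was lower in adults than in every infant array on both probe sets, by -0.57 (SE 0.16) on 203440_at and -0.45 (SE 0.16) on 203441_s_at, and neither passed (limma adjusted p = 0.501 and 0.692). CDH11 differed by -0.51 (SE 0.13) on 207173_x_at and -0.59 (SE 0.19) on 207172_s_at (adjusted p = 0.397 and 0.638). These are levels 1.42-fold and 1.51-fold higher in infants than in adults. CTNNB1 averaged 11.43 ± 0.15 in adults (SD, n = 3) and 11.02 ± 0.15 in infants (SD, n = 4), a difference of 0.41 (SE 0.17, limma adjusted p = 0.767). For CDH6 the adult differences were -0.56 on 210602_s_at, -0.40 on 214803_at, -0.32 on 205532_s_at, -0.10 on 205533_s_at and -0.08 on 210601_at, with limma adjusted p between 0.812 and 0.967, and the last was 0.26 without adult arrays 1 and 2. On CTNNA1 210844_x_at the difference was -0.22, with a 95% interval from -0.52 to 0.07.

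None of the 20 probe sets passed limma's test between adults and infants, where 0.018% of all probe sets did. An unadjusted p under 0.05 was reached by 5 of the 20, both of CDH2, both of CDH11 and that of CTNNB1, against 6.19% of all. The groups did not overlap for 5 of the 20, against 4.98% of all. Whether the replicate numbers of the titles mark pairs was not settled, and the main fit used no replicate block. With the replicate block, 9 probe sets in place of 4 passed over the whole array, 0.0405% of all, and again none of the 20.

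Between infants and fetal arrays the means of CDH2 and of 4 of the 5 CDH6 probe sets were lower in infants, those of CDH11 were higher, and none passed the test. CDH2 203440_at was at 8.12 ± 0.08 in infants and 8.67 ± 0.36 in fetal arrays (SD, n = 4 each), a difference of -0.55 (SE 0.15, limma adjusted p = 0.497). CDH2 203441_s_at differed by -0.30 (SE 0.15, adjusted p = 0.749). CDH6 214803_at averaged 8.12 ± 0.36 in infants and 9.04 ± 0.61 in fetal arrays (SD, n = 4 each), a difference of -0.92 (SE 0.24, limma adjusted p = 0.497). The other CDH6 sets differed by -0.64 on 210602_s_at, -0.46 on 205532_s_at, -0.30 on 210601_at and 0.03 on 205533_s_at, with limma adjusted p between 0.681 and 0.980. CDH11 differed by 0.29 (SE 0.12) and 0.44 (SE 0.18), with adjusted p of 0.666 and 0.676. CTNNB1 differed by -0.12 and by 0.065 without fetal array 4. The limma test called none of the 20, and 0% of all probe sets. An unadjusted p under 0.05 was reached by 6 of the 20, against 6.87% of all, and the groups did not overlap for 1 of the 20, CDH2 203440_at, against 3.34% of all. Without fetal array 4, CDH6 210602_s_at passed, at -1.01 (limma adjusted p = 0.0050). In that fit 1 of the 20 passed, and 21 of all 22215 probe sets. The array left out lay far from the other fetal ones on this set, at 7.65 against 9.10 for the next.

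Within the arrays titled fetal, the newborn ones were set against those of gestation day 120, with 2 arrays each. CDH2 was lower in newborns by -0.60 (SE 0.15) on 203440_at and -0.48 (SE 0.18) on 203441_s_at. CDH6 was lower by -0.89 (SE 0.26) on 214803_at, -0.79 (SE 0.32) on 210602_s_at and -0.66 (SE 0.22) on 205532_s_at. For these 5 probe sets the newborn arrays lay below both gestation day 120 arrays. None of the 20 passed limma's test, and 0% of all did, with adjusted p of 1 for each. An unadjusted p under 0.05 was reached by these 5, against 1.81% of all, and 10 of the 20 did not overlap, against 28.8% of all. The 10 were these 5 and 5 that were higher in newborns. The higher ones were CDH1 201130_s_at, CTNNA1 210844_x_at, 200765_x_at and 200764_s_at, and CTNND1 211240_x_at. The step for 210602_s_at rested on newborn array 4. It was -1.52 without newborn array 3, where newborn array 4 alone stood for newborns, and -0.060 without newborn array 4.

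The order of CDH2 levels was thus gestation day 120, newborn, infant and adult, with newborns and infants separated by less than the spread of the infants on 203441_s_at. For CDH11 it was infant, gestation day 120, newborn and adult on both probe sets. The means of newborns and adults differed there by less than the spread of the adults on 207172_s_at.

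Other genes of cell adhesion were read from 7 lists with 147 genes, of which 127 were measured. None passed limma's test between adults and fetal arrays, where 0.184% of 11963 genes did, each gene being read by its brightest probe set. An unadjusted p under 0.05 was reached by 14 of the 127, 11 lower and 3 higher in adults, against 9.92% of all genes. The median difference over the 127 was 0.00, as over all genes. None passed between adults and infants (0.0334% of all genes), infants and fetal arrays (0%) or newborns and gestation day 120 (0%). Unadjusted, 8, 8 and 2 of the 127 did in these comparisons, against 6.58%, 7.6% and 2.07% of all genes.

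PCDH7, which encodes a protocadherin, came closest among these genes. It read 8.98 and 9.14 at gestation day 120, 8.99 and 8.55 in newborns, 8.53, 8.80, 9.08 and 8.56 in infants and 8.17, 8.11 and 8.05 in adults, so that the adults lay below every other array. Its adult and fetal arrays did not overlap, as for 8.08% of all probe sets. The difference of adults from fetal arrays was -0.81 (SE 0.15, limma adjusted p = 0.0614), and PCDH7 passed without fetal array 4. In its list of protocadherins and giant cadherins 8 of 27 measured genes were lower in adults, with a median of 0.03. PCDH12, an endothelial protocadherin gene, differed by 0.38 (limma adjusted p = 0.522).

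Regulators of cadherin transcription, the factors that repress CDH1 or accompany CDH2 in mesenchymal cells, were lower in adults than in fetal arrays in 6 of 9 cases, with a median of -0.27, where 49.9% of all genes were lower. None passed, and 2 of the 9 had an unadjusted p under 0.05, against 9.92% of all genes. TWIST1, a factor of mesenchymal and skeletal development, read 8.92, 8.92, 8.73 and 9.07 in fetal arrays, 7.89, 8.69, 8.51 and 8.69 in infants and 8.28, 8.35 and 8.00 in adults. Adults and fetal arrays did not overlap, as for 8.08% of all probe sets, and the difference was -0.70 (SE 0.17, limma adjusted p = 0.161). TCF3 differed by 0.72 (SE 0.45, limma adjusted p = 0.701), carried by adult array 1 at 9.82.

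Genes of shedding, turnover and phosphorylation of the complex were lower in adults in 14 of 21 cases, with a median of -0.06, against the same 49.9% of all genes. An unadjusted p under 0.05 was reached by 5 of the 21, all lower, against 9.92% of all genes in either direction. YES1, a kinase of the SRC family, averaged 7.98 ± 0.21 in adults (SD, n = 3) and 8.96 ± 0.45 in fetal arrays (SD, n = 4), a difference of -0.98 (SE 0.24, limma adjusted p = 0.161). FYN, of the same family, differed by 0.38 (SE 0.20, limma adjusted p = 0.629).

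The remaining lists lay near 0. Other cadherins were lower in adults in 5 of 13 cases, with a median of 0.08, and CDH12 and CDH10 differed by -0.11 and 0.23 (limma adjusted p = 0.848 and 0.617). Desmosomal genes were lower in 5 of 12 cases, with JUP, for plakoglobin, at -0.27 and PKP1, for a plakophilin, at 0.28 (limma adjusted p = 0.493 and 0.491). Other catenins and actin linkers were lower in 10 of 21 cases, with TJP1 at -0.25 and ENAH at 0.49 (limma adjusted p = 0.565 and 0.336). Genes of beta-catenin destruction and transcription were lower in 12 of 24 cases, with EP300, a coactivator, at -0.33 and APC, of the destruction complex, at 0.22 (limma adjusted p = 0.451 and 0.646).

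**Figure D4:**
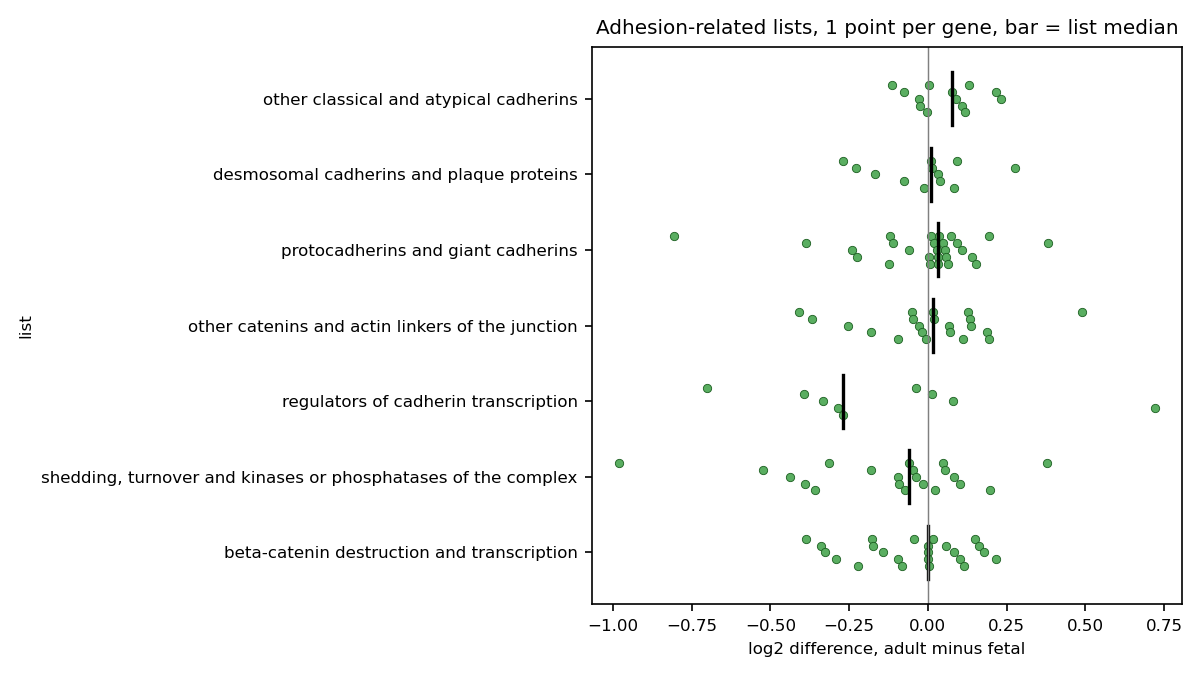
Log2 difference of adults from fetal arrays for each measured gene of the 7 adhesion lists, 1 point per gene, with a bar at the list median and a line at 0. PCDH7, TWIST1 and YES1 are the points farthest to the left in their lists, and the list medians lie between -0.27 and 0.08.

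In the rhesus RefSeq annotation (assembly T2T-MMU8v2.0) several of these genes lie next to relatives. Among protein-coding genes CDH3 is followed by CDH1, CDH8 precedes CDH11, CDH9 precedes CDH6, and the desmocollin gene DSC3 precedes CDH2. These neighbours differed little between adults and fetal arrays, DSC3 by 0.03 (SE 0.11, limma adjusted p = 0.966), CDH9 by -0.00 (SE 0.12, adjusted p = 0.999) and CDH8 by 0.11 (SE 0.15, adjusted p = 0.894). Their means in adults and fetal arrays were 7.44 and 7.41 for DSC3, 6.68 and 6.68 for CDH9, and 7.18 and 7.07 for CDH8. The median of all probe sets was 7.38. Whether such dim sets carried signal cannot be told, so nothing is read from their small differences.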

How the data were processed

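Total RNA of 11 marrow stromal cultures was labelled with biotin and hybridised to 1 array each, per the labels' protocols. Deposited were linear-scale intensities of probe sets, made by the authors with RMA (version not given), per the submitters' processing notes. Because RMA equalises the arrays, differences in overall brightness are gone. Log2 was taken. The platform annotation gave 1 gene symbol to 19065 of the 22215 probe sets, several to 1043 and none to 2107. Groups came from the titles and stages from the source names.

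Limma 3.58.1 in R 4.3.3 (lmFit, eBayes) fitted 1 mean per group over all 11 arrays, two-sided, with Benjamini-Hochberg adjustment over all probe sets and calls at 0.05. Newborns and gestation day 120 were compared in a fit with 4 stages. Members and lists were chosen with earlier results of these data known. All members were named. From each list the genes called were named, or else that of smallest p in each direction between adults and fetal arrays. The 5 genes most like CDH2 and the 3 most opposed were named by Pearson r. The fits were run on simulated data with independent noise. Recovery was required only for a shift larger than the member differences given here, and not for newborns against gestation day 120. Alternatives were quantile normalisation, median centring, a filter on dim probe sets, trended robust moderation, array weights, a replicate block, 4 stages and leaving out arrays. Deviations of same-numbered adult and infant arrays from their group means correlated at r = 0.145, 0.131 and 0.204, all above 0.1. Arrays of different numbers were not compared, so these values do not show that the numbers mark pairs. The main fit used no block, and the replicate block was an alternative only. No pair of arrays was identical.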

Additional observations from a re-analysis of the deposited data

Results flagged for a closer look

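Of 40 sets of 4 values, the 20 probe sets in fetal and in infant arrays, 7 held an array far from the others. By the critical values used, chance gives about 1 in 20 for independent values of 1 population, whereas the fetal arrays hold 2 stages and identical values are common.

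Fetal array 4, from a newborn donor, was such an array for 2 probe sets. It read 7.65 for CDH6 210602_s_at, where the next fetal value was 9.10, and 11.70 for CTNNB1, where the next was 10.98. Fetal array 1 read 7.45 for CTNNA1 215883_at, below 7.78 for the next. Infant array 1 read 8.31 for CDH6 210601_at, below 8.82 for the next, and 9.07 for CTNND1 211240_x_at, above 8.83, the identical value of the other 3 infant arrays. Infant array 4 read 7.49 for CDH1 201130_s_at, above 7.10 for the next, and 7.54 for CTNND1 208407_s_at, above 7.28.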

How the results depend on the processing

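Of 40 differences followed, for 10 probe sets in 4 comparisons, 525 of 536 alternative values kept their direction. The 10 were the sets of CDH2, CDH11 and CTNNB1, those of CDH6 but 205533_s_at, and the brightest of CTNNA1. The sets of CDH1, CDH3 and CTNND1 and the dimmer CTNNA1 sets were not followed, so the share does not hold for all members. The filter on dim probe sets and trended robust moderation leave a difference as it is, so these values could not change direction. Differences also stayed the same with the replicate block between infants and fetal arrays, and with array weights between newborns and gestation day 120. The share is raised by such values. The CDH2 values kept their direction throughout, but adults against fetal arrays chose the genes, and the alternatives refit the same arrays. The 11 reversals concerned values near 0. The fit with 4 stages sets adults or infants against gestation day 120 alone, without the newborn arrays, and so is another contrast than that with all fetal arrays. CTNNA1 210844_x_at, adults against fetal arrays, stood at 0.017 after quantile normalisation, 0.067 against gestation day 120 alone, 0.039 without adult arrays 1 and 2 and between -0.13 and 0.050 when 1 array was left out, above 0 without fetal array 4. CDH11 207172_s_at lay there between -0.36 and 0.035, above 0 without adult array 3. CDH6 210601_at, adults against infants, lay between -0.24 and 0.061, above 0 without adult array 2, and stood at 0.26 without adult arrays 1 and 2. For newborns against gestation day 120 it lay between -0.34 and 0.092, above 0 without fetal array 1 or fetal array 4. CTNNB1, infants against fetal arrays, stood at 0.066 against gestation day 120 alone and lay between -0.19 and 0.065 when 1 array was left out, above 0 without fetal array 4. The cause was not tested.

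Between adults and fetal arrays 29 probe sets passed over the array, 42 with trended moderation, 27 with 4 stages (against gestation day 120 alone), 120 with array weights, 221 with the replicate block and 44 without adult arrays 1 and 2, an alternative added after seeing the data. Leaving out 1 array gave 4 to 153. Of the 20 probe sets 1 passed, 2 with trended moderation or array weights, 3 against gestation day 120 alone, 4 with the replicate block, 0 without adult arrays 1 and 2, and 0 to 5 when 1 array was left out. The 5, without fetal array 4, were both CDH2 sets and 3 of CDH6, where 120 probe sets passed over the array. This comparison chose the genes and the alternatives refit the same arrays, so nothing is read from the counts of the 20. Of the list genes 0 passed, 1 with array weights or the block and 0 to 1 when 1 array was left out, each time PCDH7. Deviations of same-numbered arrays from their group means correlated at 0.07, 0.04 and -0.10 for adult and fetal arrays and at 0.01 to 0.28 for infant and fetal arrays. Whether these numbers mark pairs was not settled either.

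Between adults and infants 4 probe sets passed, 8 with trended moderation, 10 with array weights, 9 with the replicate block, 44 without adult arrays 1 and 2, when also 1 list gene, CLSTN1, passed, and 0 to 55 when 1 array was left out. Between infants and fetal arrays 0 passed, 1 with the filter on dim probe sets or array weights, 2 with the replicate block and 0 to 21 when 1 array was left out, with 0 to 1 of the 20. Between newborns and gestation day 120 0 passed, 0 to 2 when 1 array was left out, with 0 to 1 of the 20. With 1 array left in a group it was assumed to vary like the others. Signal over background could not be judged without detection calls.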

Other observations

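Identical deposited values on different arrays were common. For 12 of the 20 cadherin and catenin probe sets 2 or more arrays held the same value, as for 58.5% of all probe sets. CTNND1 211240_x_at stood at 8.83 in 3 infant arrays. CDH3 read 7.66 in both arrays of gestation day 120 and in infant array 4. The cause was not tested.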
